A study of Homo sapiens with 16 samples.

Results

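Epiregulin (EREG) and the receptors ERBB2 and ERBB3 were followed through the gene names that a Flura-seq study of breast cancer brain metastasis printed in its enrichment tables. The 3 genes were selected on being printed in a listed term, out of 2676 genes so printed in either table, so their naming and the p-values of their terms are a description. EREG was named in 4 terms of the HCC1954 table and in no MDA231 term. ERBB2 was named in 6 terms of the MDA231 table and ERBB3 in 1, and both were named in no HCC1954 term. By the labels, the ligand thus stood in the table of the line with amplified ERBB2, and the 2 receptors in the table of the triple-negative line. Of all background genes, 0.179% were named for HCC1954 and 15.8% for MDA231, so nothing is read from a gene's absence for HCC1954. However, 9 of 15 epithelial markers (60.0%, beside 15.8% of all background genes) were named for MDA231, a mesenchymal-like line. That goes against its label if naming means higher levels. Whether the tables hold genes with lower levels, or were exchanged, was not tested.

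Flura-seq labels new RNA in cells that can convert 5-fluorocytosine, and recovers that RNA from the tissue with an antibody. Brain-metastatic derivatives of HCC1954 and of MDA231 (MDA-MB-231) grew in mouse brain for 30 days, and every mouse received 5-fluorocytosine at 250 mg/kg 12 hours before the brain was taken. The 16 libraries form 4 groups of 4, namely HCC1954 input, HCC1954 IP, MDA231 input and MDA231 IP, where IP is the immunoprecipitated RNA. Each line is represented by 1 derivative, and the sources used here do not give the host strain or the enzyme that converts the drug. The values analysed are 1 table of Gene Ontology terms per line, with no value per library, so depth and the spread between replicates are unknown here. In RNA of a whole tissue, fewer cells of a type and less RNA per cell cannot be told apart. No source used here says whether a listed gene rose or fell in IP against input, and no direction is given to any name below.

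ERBB receptors are tyrosine kinases that act in pairs at the cell surface. EREG is made as a membrane-bound precursor, is cut free by metalloproteases, and binds EGFR and ERBB4. ERBB2 has no known ligand of its own and serves as the preferred partner of the others, while ERBB3 binds neuregulins but has a kinase domain with little activity, so that it signals through its partner and chiefly through PI3K. Amplification of ERBB2 defines a class of breast cancers, to which HCC1954 belongs. MDA231 lacks that amplification, and EREG is known from work on its lung-metastatic derivatives.

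The coding sequences below show the parts of each gene on which these roles rest. The EREG stretch covers the EGF-like motif, with its 6 cysteine codons in capitals (GRCh38 chr4:74381061-74381137 and chr4:74382645-74382675, plus strand, 2 coding exons). The receptor stretches are 60 bases around the catalytic loop of the kinase, with the codon of the catalytic residue in capitals (ERBB2 chr17:39725064-39725123 and ERBB3 chr12:56097800-56097859, both plus strand). Sequences are from GENCODE release 29 transcripts.
EREG: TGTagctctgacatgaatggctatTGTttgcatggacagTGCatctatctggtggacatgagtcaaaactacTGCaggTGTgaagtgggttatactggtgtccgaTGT
ERBB2: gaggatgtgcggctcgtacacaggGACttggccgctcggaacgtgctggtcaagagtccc
ERBB3: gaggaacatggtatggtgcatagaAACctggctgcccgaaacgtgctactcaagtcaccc
The receptor stretches were identical at 39 of 60 bases (65.0%). Counted from 1 at the 5′ end of the stretch, with the ERBB2 base given before the position and the ERBB3 base after it, the catalytic codon differed by G25A. By the genetic code the ERBB2 codon encodes aspartate, the catalytic base of active kinases, and the ERBB3 codon encodes asparagine.

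EREG (ENSG00000124882; GRCh38 chromosome 4, 74365143 to 74388751, plus strand) was 1 of 30 genes named for HCC1954. Its 4 terms were 10.8% of the 37 listed, and 6 of the 30 genes were in more terms. Of the 16792 background genes, 0.179% were named in any HCC1954 term. The list held 66 genes with a biological process, so 36 of them were printed in no row.

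Control of cell growth made up 2 of the 4 EREG terms. Positive regulation of fibroblast proliferation held EREG, GAS6, the ligand of the receptor AXL, and TGFB1, the cytokine transforming growth factor beta 1. These were 3 of its 54 background genes, and the authors' deposited table gives a fold enrichment of 14.1 with p = 0.0186 before adjustment. The exact binomial 95% interval of that fold, computed from the gene counts, was 2.95 to 39.5. Negative regulation of cell proliferation held 5 of 396 genes, with a fold of 3.21 (1.06 to 7.12) from the authors' deposited table. Beside EREG it named BMP7, a bone morphogenetic protein, TGFB1, the insulin-like growth factor binding protein IGFBP7 and the membrane protein EMP3. The same ligand was thus annotated to a term that promotes growth of one cell type and to a term that restrains growth.

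The other EREG terms were signalling and tissue form. Cell-cell signaling held EREG with FGF14, a fibroblast growth factor homologue, the gap junction protein GJA3 and the matricellular protein CCN3, which were 4 of 254 genes, with a fold of 4.01 (1.11 to 9.78) from the authors' deposited table. Organ morphogenesis held EREG with APLP1, an amyloid precursor-like protein, and the transcription factor ONECUT2, 3 of 92 genes, with a fold of 8.30 (1.73 to 23.2) from the authors' deposited table. With EREG taken out of term, list and background, the 4 folds were 9.75 for fibroblast proliferation, 2.62 for negative regulation of proliferation, 3.06 for cell-cell signaling and 5.68 for organ morphogenesis.

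None of the 4 EREG terms passed an adjusted p of 0.05 in the authors' deposited table, and among all 37 HCC1954 terms the share that did was 0%. Their Benjamini adjusted p-values ran from 0.819 to 0.882. Before adjustment 2 of the 4 had a p under 0.05 in the authors' deposited table, against 25 of all 37 listed terms (67.6%). Each fold rests on 3 to 5 genes, and the intervals span more than a factor of 5.

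**Figure D1:**
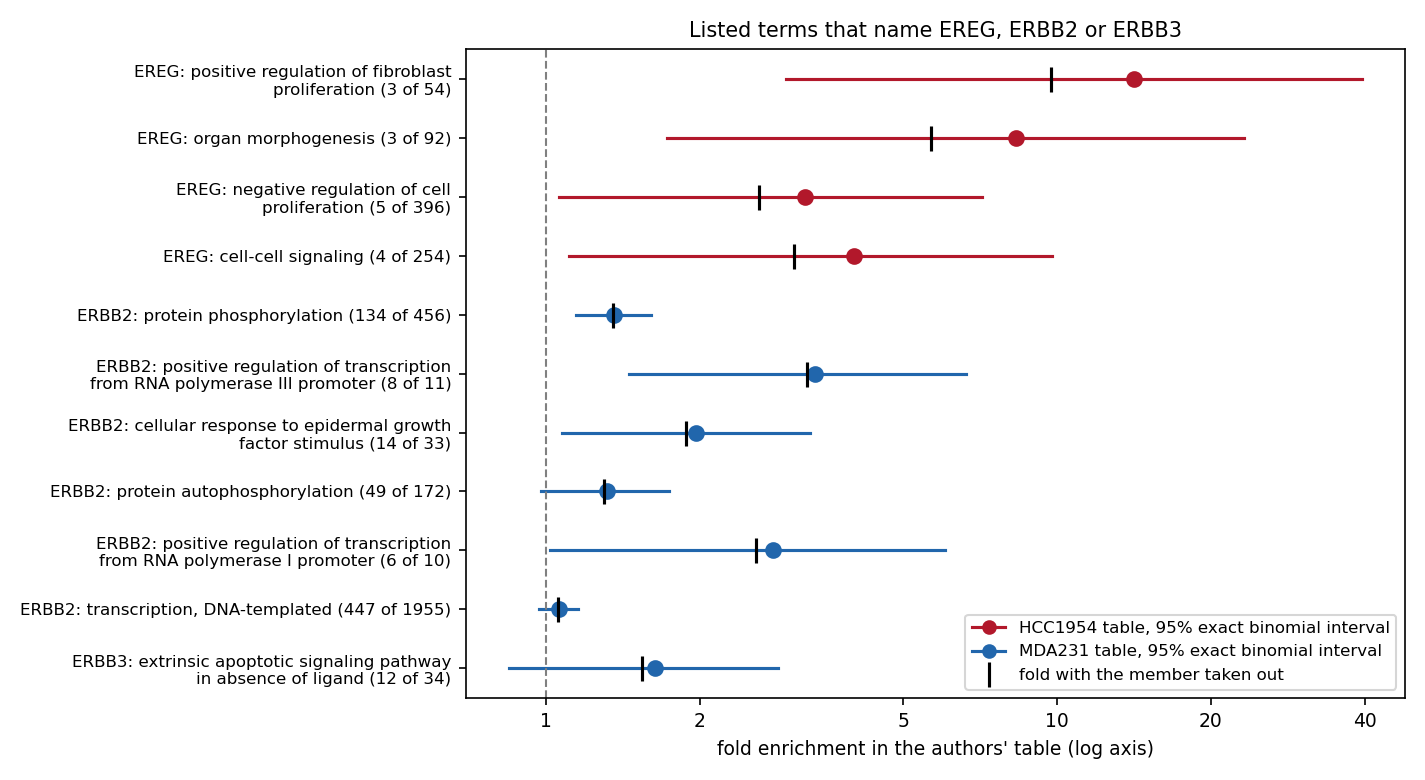
Fold enrichment in the authors' deposited table (log axis) for each of the 11 listed terms that name EREG, ERBB2 or ERBB3, with the listed and background genes of the term in parentheses. Points are the deposited folds, lines the 95% exact binomial intervals, and black ticks the fold with the named gene taken out; the EREG terms lie between 3.21 and 14.1 with wide intervals and the receptor terms between 1.06 and 3.37.

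EREG had 10 partner genes, meaning genes named in the same term, among the 29 other HCC1954 genes (34.5%). TGFB1 shared 2 of its terms and the other 9 shared 1. TGFB1 was itself in 21 of the 37 terms, so the Jaccard index of the term sets, which is shared terms over all terms of either gene, was 0.0870. APLP1, EMP3 and ONECUT2 had the highest index, 0.250, but each was named in a single term. Of 125 ERBB pathway genes, in 10 lists by role, EREG was the 1 named for HCC1954, and it was selected for being named. With 0.179% of all background genes named there, nothing is read from the absence of the others.

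EREG lies in a cluster of EGF-family ligand genes. EPGN (epigen) lies 49.8 kb from it, AREG (amphiregulin) 56.4 kb and BTC (betacellulin) 356 kb. None of these 3 was named in either table. Within 500 kb of EREG, 0 of 10 protein-coding neighbours were named for HCC1954, where 0.151% of coding genes were, and 1 of 10 for MDA231, where 13.3% were. That gene was MTHFD2L, a mitochondrial folate enzyme.

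ERBB2 (ENSG00000141736; GRCh38 chromosome 17, 39687914 to 39730426, plus strand) was among the more often named of the 2646 genes in the MDA231 table. The median named gene was in 2 terms and ERBB2 in 6, and 238 genes (8.99%) were in as many or more. ERBB3 (ENSG00000065361; chromosome 12, 56076799 to 56103505, plus strand) was in 1 term, as were 1047 of the named genes. For MDA231, 15.8% of the background genes were named in at least 1 listed term, so the naming of a given gene is common there.

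**Figure D2:**
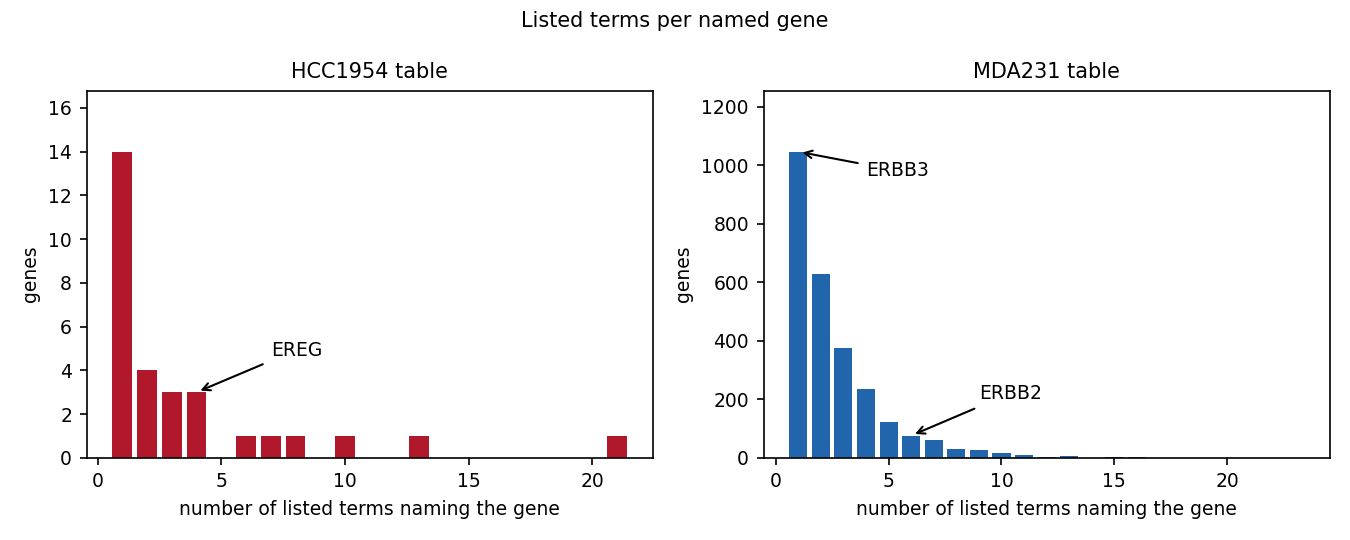
Number of genes (vertical axis) by the number of listed terms that name them (horizontal axis), for the 30 genes of the HCC1954 table and the 2646 genes of the MDA231 table. EREG is in 4 terms, ERBB2 in 6 and ERBB3 in 1; most genes of either table are in 1 or 2.

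Kinase activity supplied 2 of the 6 ERBB2 terms. Protein phosphorylation held 134 of 456 background genes, against 98.5 expected from the size of the list, with a fold of 1.36 (1.14 to 1.61) and a Benjamini adjusted p of 0.0350 in the authors' deposited table. It is the only term of EREG, ERBB2 or ERBB3 with an adjusted p under 0.05, and 15 of the 314 MDA231 terms (4.78%) had such a value. Protein autophosphorylation held 49 of 172 genes, with a fold of 1.32 (0.978 to 1.74) and an adjusted p of 0.792 in the authors' deposited table. These 2 terms shared 34 genes, which were 25.4% of the former and 69.4% of the latter, so they are not separate results.

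Among the pathway genes, protein phosphorylation named the kinase BRAF of the RAS and MAPK cascade, the PI3K regulatory subunit PIK3R1, and PDPK1, which activates AKT. It also named MTOR, GSK3B, JAK1, JAK2 and LYN, and FGFR1, another receptor tyrosine kinase. ERBB3 was in neither kinase term. Since ERBB3 was in the MDA231 list, its absence from these rows means that the annotation behind the authors' table did not place it there.

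The single term named for a stimulus of this receptor family was cellular response to epidermal growth factor stimulus. It held 14 of 33 genes against 7.13 expected, with a fold of 1.96 (1.07 to 3.29) and an adjusted p of 0.667 in the authors' deposited table. ERBB2 stood there with ERRFI1, a feedback inhibitor that binds ERBB kinase domains, the transcription factors STAT5B and MYC, and PDPK1. Other names in the row were ZFP36 and ZFP36L2, which destabilise mRNAs, CAD, an enzyme of pyrimidine synthesis, the autophagy gene BECN1, and COL1A1. EGFR and ERBB4 were named in no listed term of either table.

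Transcription gave the other 3 ERBB2 terms. The RNA polymerase III term held 8 of only 11 background genes, with a fold of 3.37 (1.45 to 6.63) and an adjusted p of 0.398 in the authors' deposited table. With ERBB2 it named ELL, ICE1, ICE2 and ZC3H8, which act in the little elongation complex on small nuclear RNA genes, and MTOR and the chromatin remodeller CHD8 were among the others. The RNA polymerase I term held 6 of 10 genes, with a fold of 2.78 (1.02 to 6.04) and an adjusted p of 0.862 in the authors' deposited table. There the partners were UBTF, a factor of ribosomal RNA genes, HEATR1, which acts in ribosome assembly, TAF1, the demethylase PHF8 and the stress kinase EIF2AK3. These terms had the highest shares of background genes listed among the 6, 72.7% and 60.0%, and had ERBB2 alone in common.

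The broad term transcription, DNA-templated held 447 of 1955 genes, with a fold of 1.06 (0.968 to 1.15) and an adjusted p of 0.955 in the authors' deposited table. Of the 6 ERBB2 terms, 5 had a p under 0.05 before adjustment in the authors' deposited table, where 68.2% of all 314 listed terms did. With ERBB2 taken out, the 6 folds ran from 1.06 to 3.24, beside 1.06 to 3.37 with it.

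ERBB2 shared a term with 597 genes, 22.6% of the other named genes, and most of these came from the large transcription and phosphorylation terms. Only 47 genes shared at least 2 terms with it, 8 at least 3 and 1 gene 4. That gene was PDPK1, named with ERBB2 in both kinase terms, in the epidermal growth factor term and in DNA-templated transcription. By the Jaccard index over the 314 terms, the gene most like ERBB2 was MAP3K9, a mixed-lineage kinase, at 0.429 with 3 shared terms, followed by PDPK1 at 0.400. CLK3 and STK25 (both 0.333) and FGFR1 (0.300) came next, then CAMKK2, MAP3K11, MINK1 and MKNK1 among those at 0.286. These genes encode protein kinases and stood in both kinase terms, which a count of shared terms favours.

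**Figure D3:**
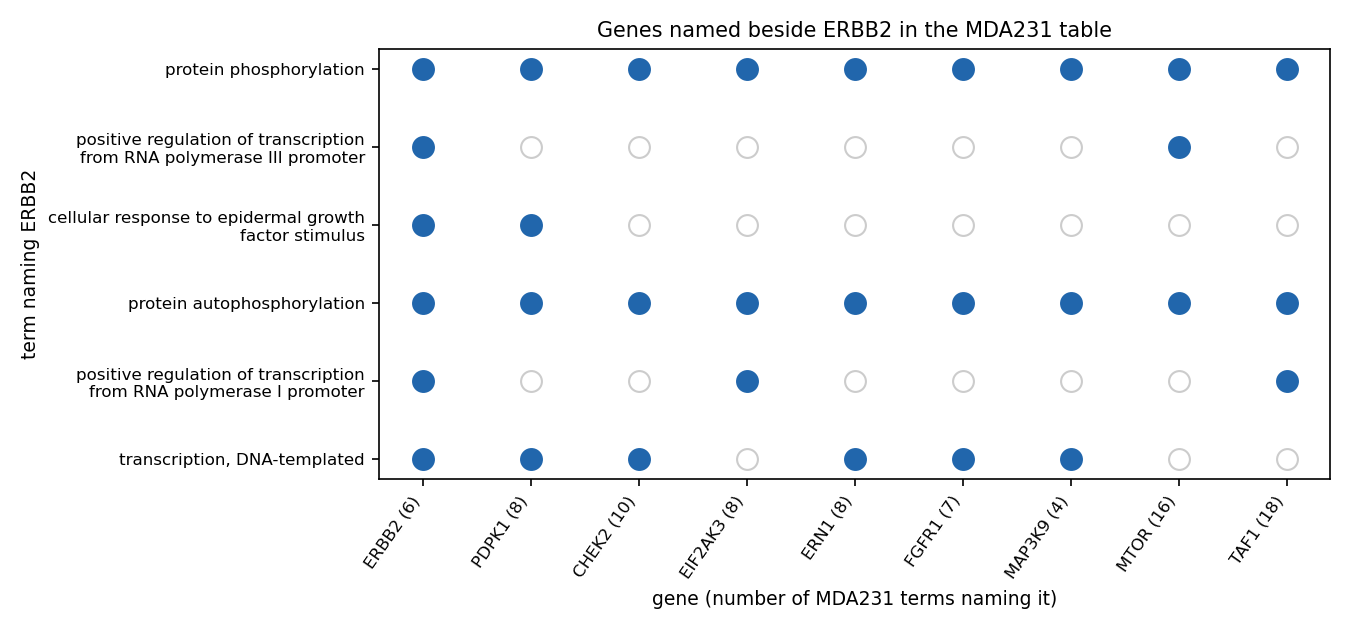
The 6 MDA231 terms that name ERBB2 (rows) against ERBB2 and the 8 genes that share at least 3 of them (columns); the number of MDA231 terms naming each gene is in parentheses. Filled circles mark a gene named in the term; every gene shown is in both kinase terms, PDPK1 alone shares 4 terms, and MTOR, EIF2AK3 and TAF1 are the genes shown that stand in a polymerase III or polymerase I term.

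ERBB3 was named in extrinsic apoptotic signaling pathway in absence of ligand, which held 12 of 34 background genes against 7.34 expected. The fold in the authors' deposited table was 1.63 (0.845 to 2.85), with p = 0.0973 before adjustment and 0.967 after it. That p, shared with histone acetylation, is the largest in the MDA231 table, so ERBB3 was printed at the very edge of the listing. The largest p in the HCC1954 table was 0.0995, and the weakest EREG term had 0.0755. With ERBB3 taken out the fold was 1.54.

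The 11 partners of ERBB3 all came from that single apoptosis term, so their shared link to cell death follows from its annotation. They were the death receptor FAS and its adaptor FADD, the BCL2-family genes BAD, BAK1 and BCL2L11, the BAX-binding gene MOAP1, and the kinases GSK3B and MKNK2. The others were the integrin ITGAV, the secreted lipocalin LCN2, and KITLG, the ligand of the receptor tyrosine kinase KIT. KITLG, like ERBB3, was named in this term alone.

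ERBB2 and ERBB3, which form a signalling pair in cells, shared 0 of their terms, that is 0 of 6 and 0 of 1. They had 2 partner genes in common, GSK3B and MKNK2, which are 0.335% of the ERBB2 partners and 18.2% of the ERBB3 partners. Of all other named genes 22.6% shared a term with ERBB2, so nothing is read from these counts. The term tables of the lines also had 0 terms in common. None of the ERBB2 terms could therefore be read for HCC1954, nor any EREG term for MDA231. For MDA231, 980 of 3626 listed genes with a biological process were printed in no row, so a gene missing from the names, EREG included, may still have been listed.

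The rest of the ERBB pathway was then looked up by role. For MDA231, 41 of 125 pathway genes were named (32.8%), beside the 15.8% of all background genes. Named pathway genes were in a median of 4 terms and all named genes in a median of 2, and the part of this difference in the count was not tested. Of the 41, ERBB2 and ERBB3 included, 13 others shared a term with ERBB2 or ERBB3.

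Among 11 ligands EGF alone was named, in DNA replication only (9.09% of the list), and of 9 genes for the release of ligands ADAM15 was (11.1%). Of 4 receptors ERBB2 and ERBB3 were named, and they were selected for it. Adaptors numbered 5 of 15 (33.3%), with GRB2, which links receptors to RAS, and CRKL in 4 terms each, and VAV3, NCK2 and SOS2. Of the brakes and turnover genes 5 of 17 were named (29.4%): ERRFI1, the ubiquitin ligases CBL, ITCH and NEDD4, and HGS, which sorts receptors to the lysosome. RNF41, the ubiquitin ligase known to control ERBB3 levels, whose gene lies 98.7 kb from ERBB3, was named in neither table.

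Inside the cell, the RAS and MAPK list had 5 of 16 named (HRAS, NRAS, ARAF and BRAF among them) and the PI3K, AKT and MTOR list 7 of 23, without any AKT gene. MTOR was in 16 terms, GSK3B in 13, PDPK1 and TSC1 in 8, and PIK3R1 and TSC2 in 7. The JAK, STAT and SRC list had 5 of 13 (JAK2, LYN, JAK1 and STAT5B among them). Of 7 chaperones and partners of ERBB2, MUC1, PLXNB1 and LGR4 were named, and neither HSP90 gene. Immediate early and target genes had the highest share, 7 of 10 (70.0%), with MYC in 15 terms, CDKN1A and CDKN1B in 9, EGR1 in 4, and FOS, ETV4 and ETV5 in 1. The list of other receptor tyrosine kinases, which is not complete, had 2 of 22, FGFR1 and INSR, in this table. EPHB3 and PTK7, outside the list, were named in 2 terms and 1 term. AXL alone of these 22 was named for HCC1954 (4.55%, beside 0.179% of all background genes), and nothing is read from 1 gene.

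**Figure D4:**
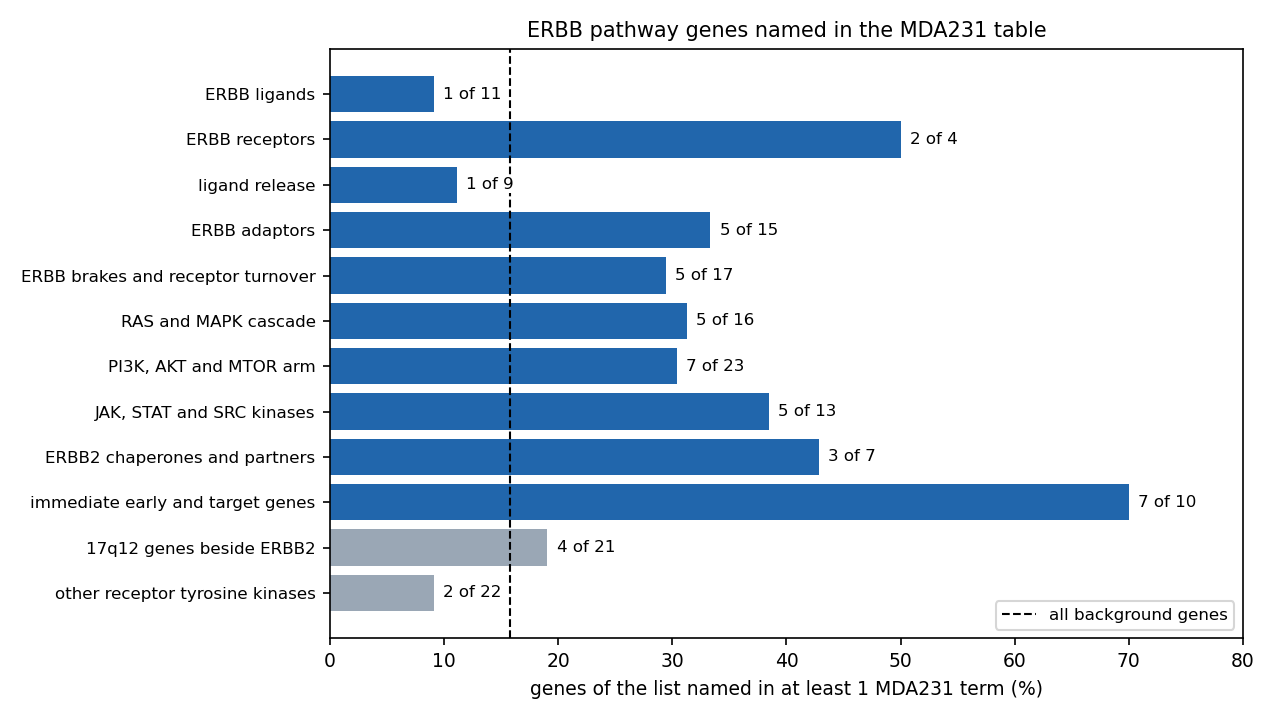
Share of each list's genes named in at least 1 MDA231 term (horizontal axis, %), with the count at the end of each bar; blue bars are the 10 ERBB pathway lists and grey bars 2 comparison lists. The dashed line is the 15.8% of all background genes; ligands (1 of 11), ligand release (1 of 9) and other receptor tyrosine kinases (2 of 22) lie below it, and the immediate early and target genes (7 of 10) lie farthest above it.

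Amplification of ERBB2 usually takes in neighbouring genes of chromosome 17q12, so these were set beside it, with a few genes of the adjoining 17q21. Of 21 such genes 4 were named for MDA231 (19.0%, near the 15.8% of all background genes) and 0 for HCC1954. They were PGAP3, an enzyme of lipid anchors, the sarcomere gene TCAP, the phosphatase inhibitor PPP1R1B, and the retinoic acid receptor RARA, a 17q21 gene that lies more than 500 kb from ERBB2 and was in 10 terms, while the other 3 were in 1 each. GRB7, an adaptor 7.50 kb from ERBB2 that is usually amplified with it, and STARD3, CDK12 and MED1 were not named. PGAP3 overlaps ERBB2 by 8884 bases on the opposite strand and MIEN1 by 1931 bases; strand use in counting is not stated in the sources used here, and without it reads of these overlaps cannot be told apart. A coding gene of the same strand, AC034102.2, overlaps ERBB3 by 2175 bases and was named in neither table. Within 500 kb, 5 of 29 coding neighbours of ERBB2 (17.2%) and 4 of 48 of ERBB3 (8.33%) were named for MDA231, against the same 13.3%. The named neighbours of ERBB3 were CDK2, SMARCC2, TIMELESS and BAZ2A.

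The labelled lines were checked against markers of their cell types. Of 15 epithelial markers, 9 were named for MDA231, the mesenchymal-like line (CDH1, KRT7, KRT8, KRT18, GRHL2, CLDN3, OCLN, MUC1 and ELF3), and 0 for HCC1954, the epithelial one. The share is 60.0% for MDA231 beside 15.8% of all background genes, and for HCC1954, at 0.179%, a count of 0 is what most lists of this size give. Of 15 mesenchymal markers, AXL, HMGA2 and TGFB1 were named for HCC1954 (3 of 15, beside 0.179% of all background genes) and TGFB2 for MDA231 (1 of 15, 6.67%, beside 15.8%). ERBB2 and ERBB3, receptors found chiefly in epithelial cells, were named in the table labelled MDA231, as were the epithelial markers. None of these epithelial markers shared a term with either receptor, while the mesenchymal marker TGFB2 shared 1 term, protein phosphorylation, with ERBB2. EREG was named in the table labelled HCC1954, as were AXL, HMGA2 and TGFB1, of which TGFB1 alone shared terms with it. The lists were chosen with earlier results of these data known, so these shares are a description. If the names mean higher levels, they go against the labels. Whether the tables list lower genes or were exchanged was not tested. Lists of 5 markers each for astrocytes, microglia, oligodendrocytes and neurons had MAP2, a neuronal gene, named for MDA231 and no other in either table; lists this short are expected to have under 1 gene named at these shares, so nothing is read from them.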

How the data were processed

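The members and the gene lists were chosen with earlier results of these data known. The submitters' processing notes name STAR, HTSeq, GRCh38 and GRCm38, without tool versions. Per the file headers, each table gives for a term the number of listed and background genes, the percent of submitted genes, the fold enrichment as a ratio, an unadjusted p-value, and Bonferroni and Benjamini adjusted p-values. The enrichment tool and the selection of genes were not given in the sources used here. A false discovery rate and a last column without a name were not used.

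Gene identifiers were matched to symbols (30 of 30 for HCC1954, 2645 of 2646 for MDA231). Intervals are Clopper-Pearson 95% intervals of a term's share of the list over its background share, and reflect only which genes were drawn. In 3 MDA231 terms, transcription, DNA-templated among them, the deposited count is 1 below the identifiers printed, and the deposited count was used. Named were all terms of the members, partners in terms of at most 10 genes, list members in larger terms, and for ERBB2 the 10 genes with the highest Jaccard index and at least 2 shared terms. Other partners in the terms of 12 and 14 genes, the remaining genes sharing 3 terms, RNF41 and the gene neighbours were added after their values were seen. Some genes that this rule takes are not reported here. No test of a gene set was run here. The functions were tested on simulated data. Positions are from GENCODE release 29. Software was Python 3.11.15 with NumPy 2.4.6 and SciPy 1.17.1.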

Additional observations from a re-analysis of the deposited data

How the results depend on the processing

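With only terms of an unadjusted p under 0.05, EREG was in 2 terms, ERBB2 in 5 and ERBB3 in 0. At an adjusted p under 0.01, or a Bonferroni p under 0.05, 0 of the 11 terms passed, against 1 at an adjusted p under 0.05 or 0.1. Among 17q12 genes, 1 rather than 4 was in at least 2 MDA231 terms. The 41 pathway genes became 30 in at least 2 terms and 37 in terms with an unadjusted p under 0.05. Counts of terms per member were the same with terms collapsed at a Jaccard index of their genes of at least 0.5. The 2 kinase terms, at 0.228, stay apart at that limit although they share many genes. Keeping terms of at least 10 background genes could not change these counts, since every term of the members has that many. A cosine measure kept 9 of the 10 genes most like ERBB2. Taking the member out lowered the EREG folds most, from 14.1 to 9.75 for fibroblast proliferation and from 8.30 to 5.68 for organ morphogenesis. Each of these terms held 3 listed genes, and taking out any 1 of them would lower the fold as much. In windows of 250 kb and 1000 kb, chosen after seeing the data, 18.8% and 13.2% of ERBB2 neighbours were named for MDA231. For ERBB3 the shares were 6.67% and 5.19%. For EREG they were 33.3% (1 of 3 genes) and 16.7% (3 of 18). Of all coding genes 13.3% were named for MDA231, and nothing is read from counts this small. Leaving out a library could not be run, since the tables hold no value per library. No paired analysis was possible because the replicate numbers that input and IP samples share in the labels have no values per library in the tables.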
